A study of Mus musculus with 8 samples.

Results

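The 10 genes described here encode structural and regulatory proteins of the neuronal cytoskeleton: the intermediate filament genes Ina, Nefl, Nefm, Nefh and Prph, and the microtubule genes Dcx, Tubb3, Stmn2, Map2 and Mapt. They were chosen by name, and all 10 were found by Ensembl gene ID among the 29639 entries of the mRNA table. RNA came from whole mouse embryos of 4 genotypes, which the design text places at embryonic day 12.5. Wild-type embryos (WT) carried no insertion, and the others carried 3 polyadenylation cassettes, which end a transcript early, in the promoter of Gtl2 (Meg3), the maternally expressed non-coding RNA gene of the imprinted Dlk1-Dio3 domain. PKI embryos carried them on the paternal copy, MKI embryos on the maternal copy and HOMO embryos on both. The sample titles write E12.5 for WT, E12.6 for PKI, E12.7 for MKI and E12.8 for HOMO, and name 2 libraries per genotype, 8 in all, whereas the table has 1 column per genotype. The sources used here give neither the strain nor the number of embryos in a library. Wherever 4 values follow a gene name, they belong to the WT, PKI, MKI and HOMO columns in that order.

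Neurons are built around 2 kinds of long polymer. Neurofilaments are assembled from the light, medium and heavy subunits together with alpha-internexin or peripherin, and they set the calibre of axons. Microtubules, polymers of alpha- and beta-tubulin, carry transport and are stabilised by tau, MAP2 and doublecortin and destabilised by stathmin-type proteins. Alpha-internexin, doublecortin, beta-III-tubulin and stathmin-2 appear as neurons leave the cell cycle, whereas the heavy neurofilament subunit accumulates later, as axons mature.

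With 1 column per genotype no spread within a genotype could be estimated. Every difference below is therefore between single columns, carries no p-value, and cannot be set against replicate error, so neighbours in any order of levels cannot be told apart beyond such error. The header names no unit, and the values were taken as FPKM (fragments per kilobase and scaled to the library), which allows levels to be compared between genes. The sequencing depth behind them is unknown. Differences are on the log2(FPKM + 0.5) scale, and a gene entered the counts when it reached 1 FPKM in at least 2 columns, which 13279 genes and 9 of the 10 cytoskeleton genes did. As a check of the labels, Meg3 was not analysed here, but miR-127-3p, a microRNA made from the maternal RNAs of the domain, had 26481, 26139.5, 455 and 794 RPM (reads scaled to the library total). This bears on the microRNA columns only, and it does not separate PKI from WT. In the mRNA columns Dlk1 of the same domain stood at 80.5, 55.7, 83.4 and 181 FPKM, close in WT and MKI. Rtl1 stood at 1.02, 0.610, 2.28 and 2.51 FPKM. The MKI column stood apart across the whole table, with a Pearson's r of 0.864 to 0.882 to the other columns over the genes tested, against 0.961 to 0.975 among the others. Uty, Eif2s3y, Ddx3y and Kdm5d, all Y-linked, had a listed value of 0 in WT, while PKI, MKI and HOMO held them at 7.12 to 29.7 FPKM. Every comparison with WT therefore also sets a column without these transcripts against one with them. Other scalings moved the median gene by between -0.08 and 0.07 in PKI, by 0.14 to 0.23 in MKI and by -0.01 to 0.06 in HOMO against WT on the log2 scale.

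The intermediate filament genes were all at their lowest in PKI except Prph. Ina, which encodes alpha-internexin, the filament protein of young central neurons (chromosome 19, 47014681 to 47025327, GRCm38), stood at 55.6, 26.9, 46.1 and 45.6 FPKM. Nefl, the light subunit on which the others assemble (chromosome 14, 68083863 to 68089095), stood at 46.9, 34.8, 43.3 and 39.8 FPKM. Both genes were highest in WT and lowest in PKI, with MKI and HOMO between. Nefm, the medium subunit and a close neighbour of Nefl on chromosome 14 (68119545 to 68125004), stood at 18.0, 9.54, 12.9 and 16.7 FPKM. Prph, encoding peripherin of peripheral and other outward-projecting neurons (chromosome 15, 99053579 to 99058978), stood at 8.66, 4.42, 4.39 and 8.23 FPKM. Nefm and Prph were thus near their WT level in HOMO and lower in both single knock-in columns, where the PKI and MKI levels of Prph were almost equal. Nefh, the heavy subunit (chromosome 11, 4938754 to 4948064), stood at 0.262, 0.0911, 0.0975 and 0.251 FPKM and was the 1 gene of the 10 below the filter. Its order of columns was the same as for Nefm, at levels too low to weigh.

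The microtubule genes included the most abundant transcripts of the 10 and the widest spread between columns. Tubb3, the beta-tubulin isotype used as a marker of neurons (chromosome 8, 123411553 to 123422015), stood at 183, 121, 41.4 and 170.0 FPKM, a range of 4.41-fold. Dcx, encoding doublecortin of migrating and young neurons (chromosome X, 143855842 to 143933396), stood at 54.2, 26.4, 80.2 and 42.5 FPKM, a range of 3.03-fold. These 2 genes went opposite ways in MKI, the lowest column for Tubb3 and the highest for Dcx. Stmn2, which encodes stathmin-2 of growth cones (chromosome 3, 8509527 to 8561604), stood at 74.8, 52.8, 94.5 and 62.3 FPKM. Map2, whose product marks dendrites and cell bodies (chromosome 1, 66175202 to 66442583), stood at 73.9, 48.8, 100.2 and 60.0 FPKM. Stmn2 and Map2 shared the order of Dcx, with MKI highest, then WT, HOMO and PKI. Mapt, encoding the axonal protein tau (chromosome 11, 104229409 to 104332090), stood at 17.2, 8.09, 8.62 and 16.1 FPKM. In Mapt both single knock-in columns were near 50% of WT (47.0% in PKI and 50.1% in MKI), as in Prph (51.1% and 50.7%).

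**Figure D1:**
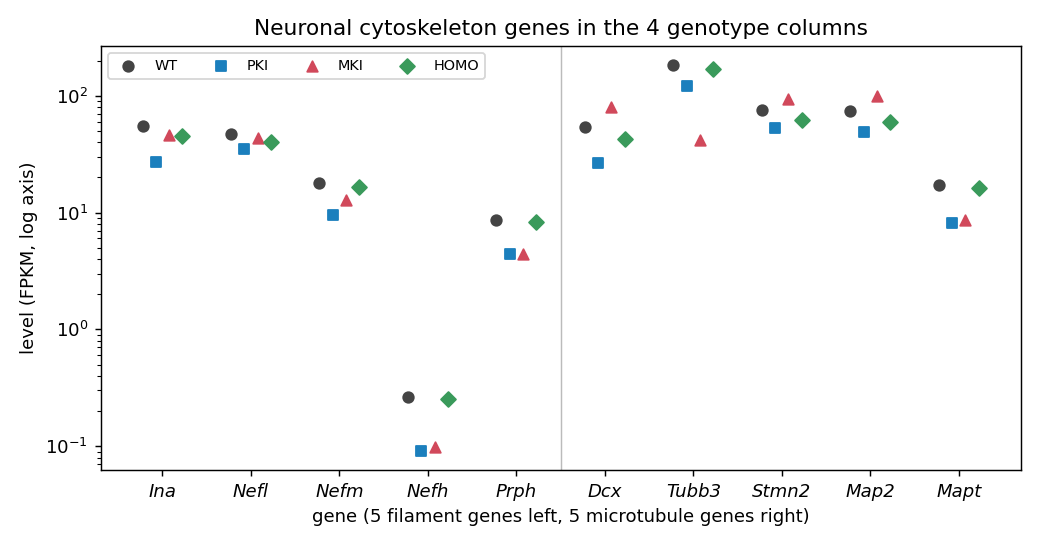
Level of each gene in FPKM (log axis) in the WT, PKI, MKI and HOMO columns, 1 point per column, with the 5 filament genes on the left and the 5 microtubule genes on the right. PKI is the lowest column for all but Prph and Tubb3, MKI is the highest for Dcx, Stmn2 and Map2, and Tubb3 stands at 41.4 FPKM in MKI.

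The paternal knock-in column was compared with WT first, since the paternal copy does not normally make Gtl2. All 9 genes tested were below WT in PKI, beside 59.5% of all genes, and their log2 differences ran from -1.04 (Mapt) to -0.42 (Nefl), with a median of -0.88 against -0.07 over all genes tested. Ina, Dcx and Mapt were more than 2-fold lower, at 48.4%, 48.8% and 47.0% of their WT level, beside 1.45% of all genes, and none was above WT (40.5% of all genes) or 2-fold higher (0.7%). These 3 lay just past the threshold, at -1.03, -1.02 and -1.04, and when columns were scaled by a trimmed mean of log ratios they were at -0.96, -0.95 and -0.97 and the count was 0 of 9. Prph and Nefm followed at -0.90 and -0.88, then Map2 and Tubb3 both at -0.59, Stmn2 at -0.50 and Nefl. In the ranking of all genes tested Ina, Dcx and Mapt lay at percentiles 1.26, 1.36 and 1.23, and Nefl at 13.5. The filament genes tested were all lower, with Nefl at 74.2% of its WT level, Nefm at 53.0%, Prph at 51.1% and Ina at 48.4%. Whether these gaps between genes exceed replicate error is unknown. In whole embryos fewer neurons and less RNA per neuron cannot be told apart.

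In the maternal knock-in column the genes split, with 6 below WT and 3 above, beside 55.4% and 44.6% of all genes. Tubb3 was at 22.7% of WT (log2 difference -2.13, percentile 2.00) and was the 1 gene past 2-fold, beside 19.1% of all genes that were 2-fold lower. Mapt (-0.96) and Prph (-0.90) were close to 2-fold lower, Nefm was at -0.46 and Ina at -0.27. Nefl was at -0.11 and changed sign under scaling by a trimmed mean (0.03) or to the same column total (0.05). Dcx, Map2 and Stmn2 were above WT at 148%, 136% and 126% of its level, with log2 differences of 0.56, 0.44 and 0.33. None of the 9 was 2-fold higher, beside 1.22% of all genes. The median over the 9 genes was -0.27 against -0.11 over all genes tested.

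Gene span moved with the difference in MKI across the table. Over 12333 genes with a RefSeq span, which are not independent replicates, Spearman's rho between the span and the MKI difference was 0.342, against -0.279 for PKI and -0.154 for HOMO. In the shortest quintile of genes by span (up to 8.52 kb) the median MKI difference was -0.67 and 36.6% were 2-fold lower, while in the longest quintile (from 77.0 kb) the median was 0.14 and 4.66% were 2-fold lower. Map2 (267 kb) and Dcx (77.6 kb), both above WT in MKI, are in the longest quintile and Stmn2 (52.1 kb) in the next one down. Tubb3 (10.5 kb) and Ina (10.6 kb) are in the second shortest quintile, where the median was -0.38, and Nefl, Nefm and Prph (5.23 to 5.46 kb) are in the shortest. Mapt (103 kb) departed from this order, as a long gene at -0.96, and the very short Nefl departed the other way. In PKI, by contrast, the median of the longest quintile was -0.20 and that of the shortest 0.05, and short and long cytoskeleton genes were both lower. The part of gene span in these differences was not tested. Dcx is X-linked, and the part of embryo sex in its levels, or in those of the other genes, was not tested either.

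**Figure D2:**
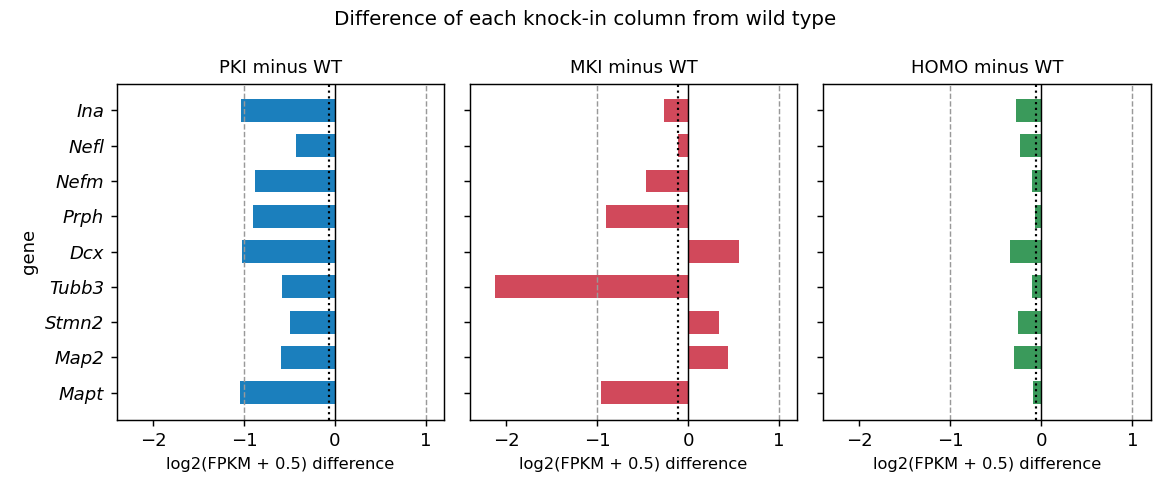
Bars give the log2(FPKM + 0.5) difference of PKI, MKI and HOMO from WT for each of the 9 genes tested; dashed lines mark 2-fold and dotted lines the median of all genes tested. Every bar points down in PKI and HOMO, while in MKI Tubb3 reaches -2.13 and Dcx, Stmn2 and Map2 point up.

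With the insertion on both copies the cytoskeleton genes tested stood closer to WT than in PKI. All 9 were below WT in HOMO, beside 61.5% of all genes, and none was 2-fold lower, beside 0.783%. Correspondingly 0 were above WT, beside 38.5%, or 2-fold higher, beside 0.67%. The differences ran from -0.35 (Dcx) to -0.07 (Prph), with a median of -0.23 against -0.06 over all genes tested. Dcx was at 78.4% of WT, Map2 at 81.3%, Ina at 82.0%, Stmn2 at 83.3% and Nefl at 84.9%, whereas Nefm, Tubb3, Mapt and Prph were between 92.7% and 95.1%. In the ranking of all genes tested Dcx, Map2, Ina, Stmn2 and Nefl lay at percentiles 10.8, 14.9, 16.1, 18.3 and 21.9. Nefm, Tubb3, Mapt and Prph lay at percentiles 41.9 to 48.9. The 3 comparisons with WT share the WT column, so a high or low value there would enter all of them.

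Pairs that leave WT out gave another view of the same levels. Against PKI all 9 genes were higher in HOMO, beside 51.1% of all genes, from 0.19 for Nefl to 0.95 for Mapt, with a median of 0.68 against 0.01 over all genes tested. Mapt was at 199.6% of its PKI level, Prph at 186%, Nefm at 175% and Ina at 169%, and none was 2-fold higher, beside 1.55% of all genes, but Mapt passed it (1.02) under scaling to the same column total. None was below PKI (48.9% of all genes) or 2-fold lower (1.32%). Against MKI, HOMO held 4 genes higher and 5 lower, beside 52.4% and 47.6% of all genes. Tubb3, at 411% of its MKI level, was the 1 gene 2-fold higher in HOMO, beside 19.7% of all genes, and none was 2-fold lower, beside 3.64%. Of the others, Mapt and Prph were at 187% and 188%. Dcx was at 53.0% of its MKI level, Map2 at 59.9% and Stmn2 at 65.9%. Set against PKI, MKI held 7 genes higher and 2 lower, beside 48.2% and 51.8% of all genes. It was 2-fold higher for Dcx (1.58) and Map2 (1.03), beside 2.55% of all genes, and 2-fold lower for Tubb3 (-1.54), beside 16.6%, while Prph was at -0.01 and changed sign under the other scalings. Under scaling to the same column total Stmn2 (1.08) and Ina (1.01) also passed 2-fold higher, which made 4 genes with Dcx (1.83) and Map2 (1.28). The maternal insertion was compared in 2 column differences, MKI minus WT and HOMO minus PKI. Their signs were opposite for 6 of the 9 genes, beside 62.1% of all genes. The 2 differences for the paternal insertion, PKI minus WT and HOMO minus MKI, were opposite in sign for 4, beside 53%. WT was the highest column for 6 genes (19.9% of all genes) and the lowest for none (7.42%). PKI was lowest for 7 (21.4%) and highest for none (19.2%), MKI was lowest for 2 (44.2%) and highest for 3 (38.3%), and HOMO was never lowest (26.9%) or highest (22.6%).

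**Figure D3:**
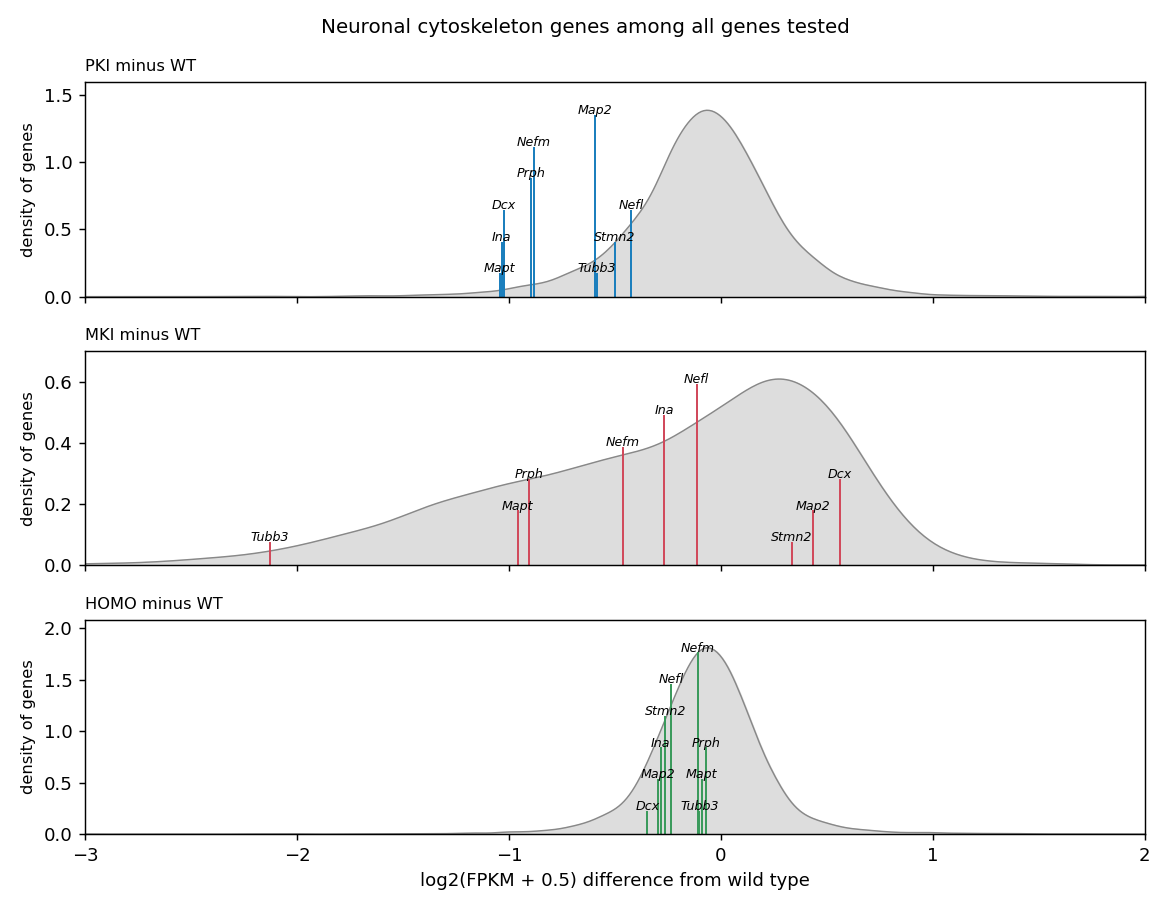
Grey shading is the smoothed density of the log2(FPKM + 0.5) differences of 13279 genes from WT in PKI, MKI and HOMO, drawn from -3 to 2, and coloured lines mark the 9 cytoskeleton genes (line heights only separate the names). The genes lie on the lower flank in PKI, between -1.04 and -0.42, spread from -2.13 to 0.56 in MKI, and lie from -0.35 to -0.07 in HOMO.

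Ratios within a column are not changed when the whole column is multiplied by a factor. They do change where a column shifts genes by their span, and the MKI difference moved with span (Spearman's rho 0.342). The 5 filament genes summed to 129, 75.8, 107 and 111 FPKM. Of this sum Ina held 43.0%, 35.5%, 43.1% and 41.2%, and Nefl held 36.3%, 46.0%, 40.6% and 36.0%. Nefl thus exceeded Ina in PKI alone, where the ratio of Nefl to Ina was 1.29 against 0.844 in WT, 0.940 in MKI and 0.874 in HOMO. The share of Prph was 6.69%, 5.83%, 4.11% and 7.45%, smallest in MKI. The ratio of Nefl to Nefm was 2.61 in WT and 2.39 in HOMO, and higher in both single knock-in columns, at 3.65 in PKI and 3.35 in MKI.

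Among the microtubule genes the ratio of Tubb3 to Dcx was 3.37 in WT, 4.60 in PKI and 4.0003 in HOMO but 0.516 in MKI. Tubb3 to Map2 gave 2.47, 2.49, 0.413 and 2.83, so these genes had nearly the same proportion in WT and PKI. Both ratios set a short gene (10.5 kb) against long ones (77.6 kb for Dcx and 267 kb for Map2), and the part of span in them was not tested. Map2 to Mapt, a dendritic against an axonal microtubule protein, gave 4.29, 6.04, 11.6 and 3.72, and Dcx to Mapt gave 3.15, 3.27, 9.31 and 2.63. Among the beta-tubulin genes Tubb3 held 11.96%, 9.11%, 6.23% and 11.2% of the summed FPKM, and the widely expressed Tubb5 held 47.3%, 52.9%, 60.2% and 48.1%. The sum over the beta-tubulin genes was 1527, 1333, 665 and 1521 FPKM, so both this sum and the share of Tubb3 within it were smallest in MKI. Tubulin isotypes are close copies of each other, and how reads were split between them is uncertain.

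**Figure D4:**
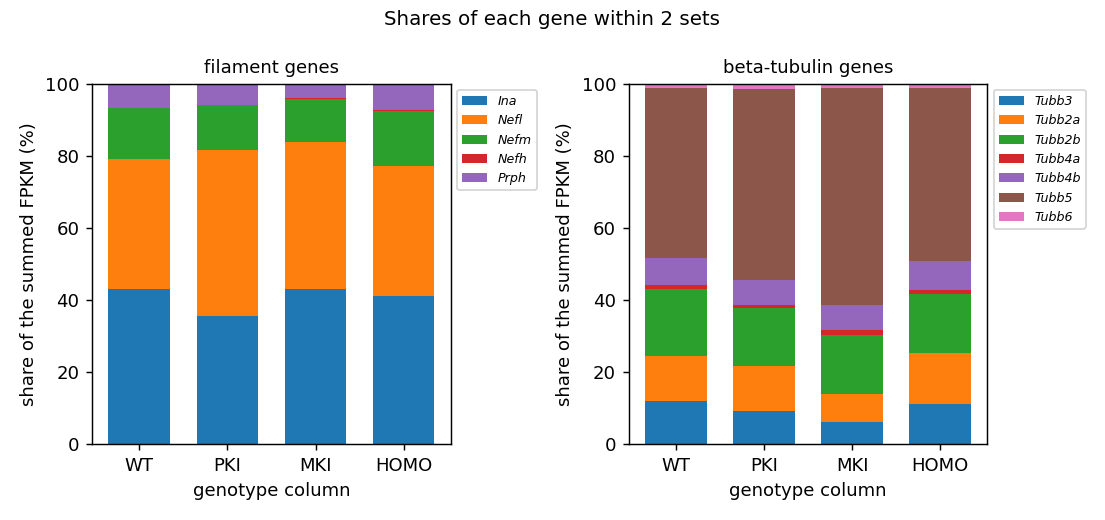
Stacked bars give the share (%) of the summed FPKM held by each filament gene (left) and each beta-tubulin gene (right) in the 4 columns. Nefl takes 46.0% of the filament sum in PKI, and Tubb3 takes 11.96% of the beta-tubulin sum in WT and 6.23% in MKI, where Tubb5 takes 60.2%.

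By their 3 differences from WT the cytoskeleton genes were most alike in pairs. Stmn2 and Map2 were closest (Euclidean distance 0.14 on the log2 scale over the 3 knock-in columns), then Prph and Mapt (0.16) and Ina and Nefm (0.30). None of these pairs shares a chromosome, while the chromosomal neighbours Nefl and Nefm were 0.59 apart. The largest distance was between Dcx and Tubb3 (2.73). Ina was nearest to the median pattern of the 9 genes (0.16) and Tubb3 farthest from it (1.89). Outside the 10 genes, 8862 others with a symbol and 5 FPKM or more in WT were ranked by distance to that median pattern. The 10 nearest were Cacna1b (0.08), Soga3 (0.11), Nmnat2, Sall1, Lhx1, Dync1h1, Nfe2, Rab6b, Hoxb5 and Igf2r (0.21). Cacna1b, a neuronal calcium channel gene, stood at 5.06, 2.54, 3.91 and 4.07 FPKM, and Dync1h1, the heavy chain of the dynein motor, at 56.2, 31.4, 43.6 and 52.7 FPKM. The list also holds genes best known from other cells, such as Nfe2 of blood.

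Promoters of genes with different patterns were set side by side. RefSeq windows (GRCm38.p6) of the 250 bases before a start site were found for 5 of the 10 genes, Ina, Prph, Dcx, Tubb3 and Map2, with 2 overlapping windows for Dcx. Bases that lie before the RefSeq gene span are printed 5′ to 3′ on the strand of the gene, for Tubb3 and Dcx, the pair farthest apart by their differences from WT, for Map2, which shared the order of Dcx, and for Ina, nearest to the common pattern. Capitals mark matches to the motifs named below on either strand.
Tubb3, plus strand, chr8:123411303-123411552: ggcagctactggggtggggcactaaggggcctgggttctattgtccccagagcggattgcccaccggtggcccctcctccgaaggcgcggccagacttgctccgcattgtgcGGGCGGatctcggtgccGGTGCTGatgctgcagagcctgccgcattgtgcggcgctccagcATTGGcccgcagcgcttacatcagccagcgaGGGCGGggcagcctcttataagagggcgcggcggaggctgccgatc
Ina, plus strand, chr19:47014431-47014680: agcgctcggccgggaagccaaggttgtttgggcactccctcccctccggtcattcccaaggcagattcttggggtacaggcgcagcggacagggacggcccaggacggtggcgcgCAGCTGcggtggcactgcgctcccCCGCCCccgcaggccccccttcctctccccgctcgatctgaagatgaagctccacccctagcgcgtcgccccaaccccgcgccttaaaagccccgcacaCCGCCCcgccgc
Map2, plus strand, chr1:66175079-66175201: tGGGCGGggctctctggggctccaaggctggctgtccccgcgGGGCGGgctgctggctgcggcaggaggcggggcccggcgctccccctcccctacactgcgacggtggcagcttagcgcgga
Dcx, minus strand, chrX:143933397-143933469: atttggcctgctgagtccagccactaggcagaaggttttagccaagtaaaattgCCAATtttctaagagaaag
Motifs were searched on both strands. The core promoter motifs were the TATA box TATAAA, the CCAAT box and the GC box GGGCGG. The E-boxes were CAGATG in one form, with CAGCTG as another. Part of the REST element was searched as CAGCACC. The cAMP response element was searched as TGACGTCA. No motif contains another. Over the whole windows, GGGCGG was found for Ina, Prph, Tubb3 and Map2, beside 32.7% of all 32851 windows of the same length. CCAAT was found for Tubb3 and Dcx (33.8% of windows), TATAAA for Prph and Dcx (12.4%), CAGCTG for Ina (13%) and CAGCACC for Tubb3 (5.73%). CAGATG (14.4%) and TGACGTCA (1.55%) were in none of the windows of these genes. The windows of Map2 and Dcx, which shared their order of columns, were the most unlike in base composition, at 81.2% and 41.6% G+C with 34 and 3 CG pairs, and that of Tubb3 lay between at 68.0% and 21. These matches describe letters and not bound sites.

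Other cytoskeletal genes were read from lists, whose counts stand beside the same shares of all genes as above: for PKI 59.5% below WT and 1.45% 2-fold lower, for MKI 55.4% and 19.1%, and for HOMO 61.5% and 0.783%. All 10 other tubulin genes were below WT in MKI, 7 of them 2-fold (median -1.33), while in PKI 7 of 10 were below WT (median -0.16) and in HOMO 2 (median 0.06). Tuba1a, the main alpha-tubulin of young neurons, stood at 995, 895, 278 and 889 FPKM, and Tuba1b at 617, 623, 142 and 645 FPKM. Tubb2b, another tubulin of developing brain, stood at 285, 214, 108 and 249.5 FPKM, and Tuba4a, which was lowest in PKI, at 8.17, 2.57, 4.91 and 9.21 FPKM. Tubb3 was thus low in MKI as the other tubulins were, and was lower than most of them in PKI. All these tubulin genes are short, and lie in the shortest quintile by span or the next one up. In those quintiles 36.6% and 26.7% of genes were 2-fold lower in MKI, with medians of -0.67 and -0.38. The part of span in the low tubulin levels in MKI was not tested. Of 17 other microtubule regulators tested 15 were below WT in PKI, none of them 2-fold (median -0.38), 12 in MKI with 3 past 2-fold (median -0.25), and 13 in HOMO (median -0.06). The share 2-fold lower in MKI was near that of all genes for these regulators. The collapsin response mediator Dpysl4 stood at 25.4, 14.0, 8.51 and 29.3 FPKM, its relative Dpysl5 at 26.9, 14.9, 14.6 and 27.3, and the microtubule stabiliser Map6 at 13.2, 7.00, 7.13 and 11.3. Stmn3, a relative of Stmn2, stood at 45.7, 45.7, 16.5 and 41.8 FPKM, so these 2 stathmin genes differed in MKI, where Stmn2 was at its highest. Stmn3 spans 8.04 kb and Stmn2 52.1 kb, and the part of span in this contrast was not tested. Dpysl5 and Map6 were low in both single knock-in columns, as Mapt and Prph were. Genes of each list were named for a large mean difference from WT, which favours such a pattern. In MKI 5 of the 17 regulators were above WT, among them Map1b, at -0.72 in PKI and 0.41 in MKI.

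Motor, actin and kinase genes had medians nearer to 0 in PKI than the 9 cytoskeleton genes. Of 12 kinesin and dynein genes 11 were below WT in PKI (median -0.60), 7 in MKI with 3 past 2-fold (median -0.35) and 7 in HOMO (median -0.07). The neuronal kinesin Kif5a stood at 9.38, 4.79, 5.90 and 8.54 FPKM, Kif21b at 16.5, 9.58, 6.92 and 17.6, and the kinesin light chains Klc1 and Klc2 at 54.2, 41.3, 25.1 and 54.5 and at 9.56, 8.16, 2.80 and 9.82. Of 12 actin, spectrin and ankyrin genes 9 were below WT in PKI (median -0.28), 8 in MKI with 2 past 2-fold (median -0.63), a share near the 19.1% of all genes, and 9 in HOMO (median -0.13). The actin-binding genes Dbn1 and Fscn1 stood near WT in PKI, at 112 and 118 FPKM against 105 and 119, and were the 2 past 2-fold in MKI at 39.7 and 39.3 FPKM, while Nav1 stood at 12.4, 7.17, 6.27 and 11.97 FPKM. Of 13 genes for kinases of cytoskeletal proteins and their activators, 12 were below WT in PKI (median -0.31), 6 in MKI with 3 past 2-fold (median 0.03) and 10 in HOMO (median -0.09). Cdk5r1, an activator of the kinase CDK5, stood at 20.19, 12.59, 12.69 and 19.97 FPKM, and its relative Cdk5r2 at 2.75, 2.13, 0.456 and 1.88. The tau kinases Mark2 and Mark4 stood at 18.1, 11.8, 6.05 and 17.03 FPKM and at 9.23, 8.19, 3.56 and 10.04 FPKM. Each of these lists held genes below and above WT in MKI, as the 9 cytoskeleton genes did.

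Most intermediate filament genes outside the 10 did not share the lower level in PKI. Their list includes Nes, also listed among the neural progenitor genes, which was at -0.18 in PKI, -0.34 in MKI and -0.26 in HOMO. Of 10 tested, 3 were below WT in PKI (median 0.06) and 2 were more than 2-fold higher, the basal keratin genes Krt5 (13.6, 32.4, 11.8 and 12.4 FPKM) and Krt14 (7.23, 15.0, 0.905 and 6.24). In MKI 8 of them were below WT and 4 were 2-fold lower (median -0.46), among them Lmna of the nuclear lamina (12.55, 13.2, 3.19 and 15.1 FPKM) and Des of muscle (9.41, 8.18, 3.97 and 8.17), and in HOMO 4 were below WT (median 0.02).

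Neuronal genes that are not cytoskeletal gave medians close to those of the cytoskeleton genes in PKI. All 19 pan-neuronal genes tested were below WT in PKI, 4 of them 2-fold, with a median of -0.75 beside -0.88 for the cytoskeleton genes. In MKI 10 of the 19 were below WT (median -0.09, from -1.31 to 0.94) and in HOMO 15 (median -0.20), beside medians of -0.27 and -0.23. The axonal adhesion gene Cntn2 stood at 21.1, 8.97, 9.84 and 18.9 FPKM, Celf3 at 16.3, 7.01, 9.06 and 13.9, Elavl3 at 16.1, 9.39, 8.12 and 13.6 and Uchl1 at 73.6, 49.7, 29.4 and 76.1. No difference between the cytoskeleton genes and other neuronal genes was tested, since genes are not replicates. The summed level of the 19 genes was 407, 248, 364 and 378 FPKM, and that of the 9 cytoskeleton genes 532, 333, 432 and 461 FPKM. Both sums had WT highest, HOMO next and PKI lowest. Tubb3 alone gave 183 of the 532 FPKM in WT and 41.4 of the 432 in MKI. Uchl1 gave 73.6 of the 407 FPKM in WT and 29.4 of the 364 in MKI. The order of WT, MKI and HOMO in each sum depends on these genes.

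Lists of neuron classes were lower in PKI as well. Of 11 sensory neuron genes tested all were below WT in PKI (median -0.59), 9 in MKI (median -0.18) and 7 in HOMO (median -0.09). Ret stood at 3.10, 1.29, 1.74 and 3.12 FPKM, Tlx3 at 1.897, 0.956, 0.254 and 1.63 and Tlx2 at 1.33, 1.08, 0.0195 and 1.11. Ret shared with Prph, which these neurons express, low levels in PKI and MKI and a HOMO level near WT. It was named for its large mean difference from WT, which favours such a pattern, and 2 of the 11 genes were above WT in MKI. Only 2 of 8 motor neuron genes passed the filter, Isl2 (3.03, 1.31, 0.852 and 3.08 FPKM; log2 differences from WT of -0.96, -1.38 and 0.02) and Olig2 (1.37, 0.579, 0.618 and 1.12 FPKM), and the defining genes Mnx1, Lhx3, Chat and Slc18a3 were below it. Of 6 sympathetic neuron genes 5 were below WT in PKI (median -0.38), 5 in MKI (median -0.85) and 4 in HOMO (median -0.27), with Th at 1.72, 1.17, 0.776 and 1.39 FPKM, Dbh at 1.22, 0.563, 0.354 and 1.53, Gata3 at 2.80, 2.11, 1.27 and 2.15 and Ddc at 4.40, 3.99, 2.36 and 3.41. Of 10 forebrain neuron genes 9 were below WT in PKI (median -0.40), 4 in MKI (median 0.03) and 9 in HOMO (median -0.08), and the GABA-synthesis gene Gad1 stood at 4.59, 2.55, 3.51 and 2.84 FPKM. Dlx5 stood at 4.14, 2.71, 2.67 and 3.78 FPKM, Eomes at 1.97, 1.63, 1.28 and 1.89 and Neurod6 at 1.71, 1.92, 3.70 and 1.64. The medians of the 4 neuron classes in PKI thus ran from -0.88 over 2 genes to -0.38.

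Most progenitor and glial genes tested were also below WT in PKI. Of 14 neural progenitor genes 13 were below WT in PKI (median -0.47), 9 in MKI (median -0.34) and 9 in HOMO (median -0.20). Sox2 stood at 9.51, 3.21, 11.1 and 0.734 FPKM, Hes5 at 21.9, 15.2, 2.99 and 17.7, Msi1 at 39.6, 25.8, 9.15 and 36.0 and Neurog1, which drives sensory neuron formation, at 4.01, 1.5004, 1.48 and 3.24. The low Sox2 value in HOMO was not matched by the cytoskeleton genes tested, which were at 78.4% to 95.1% of WT there. Of 5 glial and Schwann precursor genes tested all were below WT in PKI (median -0.32), 4 in MKI (median -0.35) and 1 in HOMO (median 0.18), with Sox10 at 4.75, 3.82, 0.928 and 6.15 FPKM, Erbb3 at 9.01, 6.62, 8.00 and 10.3, and Mbp at 3.99, 2.96, 3.03 and 4.80.

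Lists of several other tissues were lower in PKI too, some of them further than the cytoskeleton genes. The median of all genes tested there was -0.07. Medians in PKI were -1.29 for 10 hepatocyte genes, -0.95 for 10 erythroid genes, -0.81 for 8 cartilage genes, -0.57 for 9 endothelial genes and -0.17 for 10 skeletal muscle genes, against 1.03 for 7 epidermal genes and 0.03 for 15 widely expressed reference genes. The summed level of the hepatocyte genes was 681, 247, 1205 and 853 FPKM, and that of the epidermal genes 38.3, 83.0, 29.4 and 36.7 FPKM. That of the erythroid genes was 6187, 5793, 3695 and 10731 FPKM, which in PKI is nearer to WT than the median of this list. In MKI the medians were 0.20 for hepatocyte, -1.13 for erythroid, -0.50 for cartilage, 0.17 for endothelial, -0.16 for skeletal muscle, -0.20 for epidermal and -0.25 for reference genes, and in HOMO 0.12, 0.29, -0.19, 0.17, -0.07, 0.01 and 0.10. The part of a different mix of tissues, or of the embryonic days in the titles, in the levels of the cytoskeleton genes was not tested.

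**Figure D5:**
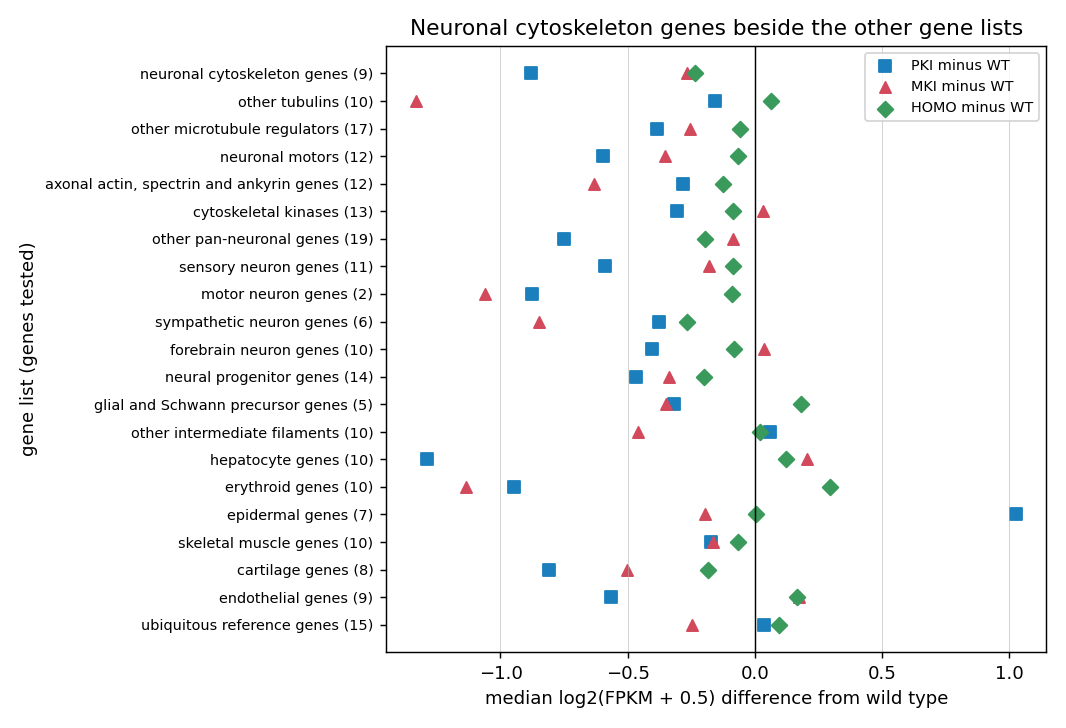
Median log2(FPKM + 0.5) difference from WT of each gene list in PKI, MKI and HOMO, with the number of genes tested in brackets. The cytoskeleton genes lie at -0.88, -0.27 and -0.23, next to the other pan-neuronal genes at -0.75, -0.09 and -0.20, while the other tubulins lie at -1.33 in MKI and the epidermal genes at 1.03 in PKI.

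Neuron-associated microRNAs of the small-RNA table gave a readout that does not use the mRNA libraries. The sequences of 7 of them are shown 5′ to 3′ from RefSeq (GRCm38.p6) with the seed, bases 2 to 8, in capitals; no 2 of them share a seed.
miR-9-5p: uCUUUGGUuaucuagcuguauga
miR-128-3p: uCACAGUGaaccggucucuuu
miR-218-5p: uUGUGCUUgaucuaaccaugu
miR-153-3p: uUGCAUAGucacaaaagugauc
miR-183-5p: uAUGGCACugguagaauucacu
miR-182-5p: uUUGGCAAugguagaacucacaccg
miR-96-5p: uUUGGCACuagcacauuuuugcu
Of 12 listed microRNAs at 10 RPM or more in at least 2 columns, those below WT numbered 7 in PKI, 5 in MKI and 4 in HOMO, beside 50.1%, 56% and 42.8% of 505 small RNAs, which are shares near the background. miR-9-5p, abundant in neural progenitors and neurons, stood at 39090, 37132, 42062 and 41432 RPM. Its PKI value was 95.0% of WT, unlike the cytoskeleton genes. miR-128-3p, a neuronal microRNA, stood at 1569, 938, 1086 and 1968 RPM, which for PKI is 59.8% of the WT value, for MKI 69.2% (exact 95% interval 67.4 to 71.1%) and 125% in HOMO (123 to 128%). miR-218-5p, known from motor neurons, stood at 11649, 7843, 10620 and 11588 RPM, or 67.3% of WT in PKI, 91.2% in MKI (90.4 to 92.0%) and 99.5% in HOMO (98.6 to 100.4%). Both had their lowest value in PKI, as most of the cytoskeleton genes did. miR-153-3p was also lowest in PKI, at 77.8, 48.5, 104 and 89.8 RPM. These are picked from a list of 12 with 7 below WT in PKI, and others differed. In PKI miR-124-5p was at 110% and miR-9-3p at 102% of WT. The intervals cover counting error only and compare columns, not genotypes, and none was computed for PKI, whose values were used as RPM alone.
The sensory organ microRNAs of the miR-183 cluster on chromosome 6 went the other way in part: miR-183-5p stood at 9335, 11945, 11528 and 10242 RPM and miR-182-5p at 12055, 15499, 17649 and 13307 RPM, both above WT in all 3 knock-in columns. miR-96-5p stood at 1925, 1604, 3266 and 1995 RPM, with 170% of WT in MKI (166 to 173%). miR-124-3p, the best known neuronal microRNA, was counted at only 311 reads in WT and stood at 37.0, 41.8, 36.5 and 56.5 RPM, highest in HOMO.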

How the data were processed

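RNA of whole embryos was profiled; per the labels' protocols, mRNA was taken with oligo(dT) beads and the second strand marked with dUTP. The submitters' processing notes list GRCm38 with HISAT2 2.0.4, StringTie 1.3.4d and cutadapt 1.9, without an annotation release. No header names a unit for the deposited mRNA values, and FPKM from the authors was assumed because StringTie writes it and the column sums differ. The deposited microRNA values are RPM by the authors; in WT, MKI and HOMO 100% of values were whole multiples of 1 read within 0.02 of a read, giving 8405962, 8638401 and 8016848 reads. An exact binomial test of these reads with Benjamini-Hochberg adjustment, which compares columns only, called 392 of 505 small RNAs between MKI and WT and 365 between HOMO and WT. The long non-coding table was not used here. Each table has 1 column per genotype without a replicate number, and no source used here says whether a column combines both libraries of a genotype. The fixed design held limma for replicated columns, which could not be fitted; differences of log2(FPKM + 0.5) and counts past 2-fold were given instead. Of 22036 Ensembl IDs 22022 matched a symbol, and 40 entries sharing 20 symbols were summed. Genes entered at 1 FPKM or more in at least 2 columns. The alternatives tried were pseudocounts of 0.1 and 1, leaving the filter out or raising it to 5 FPKM, quantile normalization, scaling by a trimmed mean of log ratios and scaling to the same column total. The 10 genes and all gene lists were chosen with earlier results of these data known. The rule named up to 4 genes of each list, those at the filter or above with the largest absolute mean difference from WT; Krt5 counts among the other filament genes, and lists of non-neural tissues are given by medians and sums only. A few genes that the rule names are not reported here. Python 3.11.15, numpy 2.4.6, pandas 2.3.3, scipy 1.17.1 and matplotlib 3.10.9 were used; the steps were tested on simulated data.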

Additional observations from a re-analysis of the deposited data

Results flagged for a closer look

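The column difference for the maternal insertion changed sign between backgrounds for 6 of the 9 genes tested, beside 62.1% of all genes. It was taken on the WT paternal copy (MKI minus WT) and on the inserted one (HOMO minus PKI), pairs that share no column. The gap between these 2 differences, on the log2 scale, was not tested because each rests on single columns. Such differences do not separate the insertion from whatever else differs between the columns. Tubb3 was at -2.13 on the first and 0.48 on the second, a gap of 2.61. Mapt was at -0.96 and 0.95, a gap of 1.91, and Prph at -0.90 and 0.83, a gap of 1.73. For these 3 genes both single knock-in columns were lower than WT while HOMO was near it. Nefm was at -0.46 and 0.77 (gap 1.24), Ina at -0.27 and 0.75 (gap 1.02) and Nefl at -0.11 and 0.19 (gap 0.31). The sign for Nefl in MKI changed under 2 of the scalings. Dcx, Stmn2 and Map2 were higher with the maternal insertion on both backgrounds. The column difference for the paternal insertion (PKI minus WT and HOMO minus MKI) also changed sign for Tubb3 (-0.59 and 2.02), Mapt (-1.04 and 0.87), Prph (-0.90 and 0.84) and Nefm (-0.88 and 0.36), beside 53% of all genes. The gaps are the same as above by construction. Both shares are near the background. For either insertion the pair with WT also sets a column at 0 for the Y-linked genes named above against one that holds them. The pair without WT holds them on both sides. The part of embryo sex in these gaps was not tested.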

How the results depend on the processing

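The number of genes below WT in PKI and in HOMO was 9 of 9 under all alternatives that kept the filter, and 10 of 10 without it. The count 2-fold lower in PKI was 3 under the alternatives tried except scaling by a trimmed mean of log ratios, where it was 0. Under that scaling and under quantile normalization 1 gene in place of 2 was below PKI in MKI, and under scaling to the same column total it was 1 too. Under scaling to the same column total 1 gene, Dcx (-1.08), was 2-fold lower in HOMO than MKI, where none was otherwise. The median of the cytoskeleton genes over all alternatives ran from -0.96 to -0.74 in PKI, from -0.31 to -0.11 in MKI and from -0.24 to -0.17 in HOMO against WT, and for HOMO against MKI it changed sign (-0.19 to 0.16). Of all genes past 2-fold in PKI 32.5% were higher, against 45.1% under quantile normalization and 23.6% under the same column total; in MKI 6.01% against 25.9%, and in HOMO 46.1% against 56.0% under the trimmed mean. Median ratio scaling moved each count of microRNAs below WT by at most 1. No paired analysis was possible because the columns carry no replicate number, and for the same reason leaving out a replicate was not run. The depth of the mRNA libraries is unknown, so no counting error can be given for Nefh or other low genes.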
